A study of Rattus norvegicus with 15 samples.

Results

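The interferon-stimulated genes described here are 43 rat genes whose transcription rises when a cell senses interferon, followed on 15 one-colour Agilent arrays of cultured hepatocytes. A gene counted as measured when the transcript accession of an array probe mapped to its symbol, which was the case for 39 of the 43. No probe was matched to Herc6, Ifi44l, Xaf1 or Nlrc5, and the probe of Zbp1 was well above background on 2 arrays only, so 38 members were among the 19783 genes tested. The list was chosen by gene role and on differences from DMSO already seen in these same arrays, so every difference from DMSO given for a member is a description and supports nothing about it.

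The cells were cryopreserved primary hepatocytes of male Wistar rats (Wister in the labels), cultured for 24 h and then exposed for 24 h. The groups were the solvent DMSO and 30 µM of 1-naphthol, naphthalene, 1,5-naphthalenediol or 2,7-naphthalenediol, with 3 arrays in each group. Naphthalene is a fused pair of aromatic rings, 1-naphthol carries a hydroxyl group on it, and the diols carry a further hydroxyl group and differ from each other in where the groups sit. The design text describes the arrays of a group as independent experiments. The labels state neither the age nor the number of donor animals. Hepatocytes bought as purified suspensions can hold a few other liver cells. In RNA from a whole culture, fewer cells of a type and less RNA per cell cannot be told apart.

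Type I interferons bind the receptor formed by Ifnar1 and Ifnar2, whose kinases Jak1 and Tyk2 phosphorylate Stat2. It joins Irf9 in a complex that binds the interferon-stimulated response element (ISRE) before target genes, while type II interferon acts mainly through the gamma-activated sequence (GAS). Liver cells respond to interferon with a broad antiviral program, and a weak tonic signal keeps many of its genes measurable without infection.

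The promoters were searched for both elements because shared regulation is what unites this family on paper. Promoter windows from RefSeq (build GRCr8), 250 bases before to 50 after a gene's start, were found for 34 of the 43 members. The ISRE core was taken as GAAANNGAAA on either strand and the GAS core as TTCNNNGAA, which reads the same on both strands. Of the 34 members, 20 held an ISRE core (58.8%), against 4.12% of all 27457 genes with a window. Matches that start within 100 bases before the gene start were found in 14 members and in 1.39% of all windows. The GAS core was in 8 members (23.5%) and in 9.39% of all genes. Overlapping matches were counted separately, and an ISRE and a GAS match overlapped in 1 member window, that of Bst2.

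Below are the 100 bases before the start of the 8 tested members with the largest spread over the arrays that hold an ISRE core within them, 5′ to 3′ on the gene's strand, with the core in capitals. They were chosen for a core within 100 bases of the start, so its nearness is no finding. Other members hold theirs farther off, with the first base at -243 in Cxcl10 and at -151 in Oasl2. In the stretches shown, some cores run into each other.
Ifit3: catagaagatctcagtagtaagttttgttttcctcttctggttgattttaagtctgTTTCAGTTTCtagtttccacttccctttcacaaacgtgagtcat
Oas1i: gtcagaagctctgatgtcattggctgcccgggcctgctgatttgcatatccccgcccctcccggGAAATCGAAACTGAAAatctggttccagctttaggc
Oas1a: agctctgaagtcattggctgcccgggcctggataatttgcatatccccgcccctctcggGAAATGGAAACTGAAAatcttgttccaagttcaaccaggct
Ifi44: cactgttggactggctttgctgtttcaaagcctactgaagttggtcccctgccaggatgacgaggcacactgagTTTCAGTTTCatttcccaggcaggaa
Gbp2: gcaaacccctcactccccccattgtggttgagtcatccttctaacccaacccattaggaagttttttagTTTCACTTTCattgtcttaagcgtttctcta
Irf7: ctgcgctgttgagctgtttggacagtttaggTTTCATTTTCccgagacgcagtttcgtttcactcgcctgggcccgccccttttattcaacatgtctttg
Eif2ak2: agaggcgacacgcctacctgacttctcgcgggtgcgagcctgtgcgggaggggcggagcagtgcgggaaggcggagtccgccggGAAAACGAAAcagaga
Ifih1: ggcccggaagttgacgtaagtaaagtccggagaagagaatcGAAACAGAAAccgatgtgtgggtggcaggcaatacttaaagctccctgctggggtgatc

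In GRCr8 these stretches are chr1:241527226-241527325 on the plus strand for Ifit3, chr12:41285126-41285225 (plus) for Oas1i, chr12:41330366-41330465 (plus) for Oas1a and chr2:243303841-243303940 (minus) for Ifi44. The others are chr2:234005627-234005726 (plus) for Gbp2, chr1:205800024-205800123 (minus) for Irf7, chr6:21941054-21941153 (plus) for Eif2ak2 and chr3:67683969-67684068 (minus) for Ifih1. Counting the base just before the gene start as -1, the core of Ifit3 begins at -44, that of Irf7 at -69 and that of Eif2ak2 at -16. In Oas1a and Oas1i a pair of cores overlaps, so the capitals run on. Their starts lie at -41 and -35 in Oas1a and at -36 and -30 in Oas1i. No core was found in the windows of Mx1, Cmpk2, Oasl, Sp100, Trim30d, Stat2 or Irf9, among others, which says only that these letters are not in those windows.

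**Figure D1:**
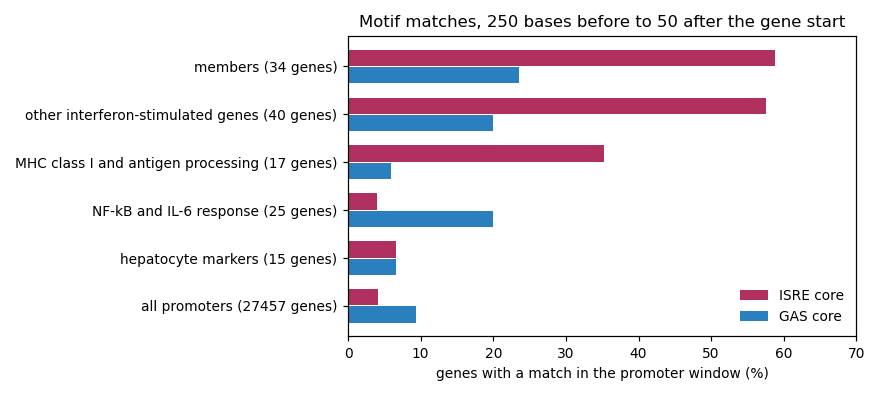
Share of genes (%) with an ISRE core or a GAS core in the promoter window, for the members, 4 other gene lists and all genes with a window; the number of genes is given beside each name. The ISRE core is in 58.8% of the members and 57.5% of the other interferon-stimulated genes, against 4.12% of all genes.

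The ISRE core was also found in 23 of 40 other interferon-stimulated genes (57.5%), a list of genes of the same response that are not members, and in 6 of 17 genes of antigen presentation by MHC class I (35.3%). It was in 1 of 25 genes of the NF-kB and IL-6 response (4.0%) and in 1 of 15 hepatocyte marker genes (6.67%). The GAS core was in 26.3% of genes of interferon receptors and signalling. Its share was 20.0% in both the other interferon-stimulated genes and the NF-kB and IL-6 list. It was in 5.88% of the MHC class I genes and 6.67% of the hepatocyte markers. Its share among the members is thus not particular to them.

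Many members sit side by side in the genome. In the RefSeq gene order, 16 members are direct neighbours of another member among protein-coding genes. Ifit2 adjoins Ifit3, Cxcl11 adjoins Cxcl10, Oasl adjoins Oasl2, Rsad2 adjoins Cmpk2 and Ifi44 adjoins Ifi44l. Parp9, Dtx3l and Parp14 form a row, as do Psmb8, Tap1 and Psmb9. The promoter windows of Tap1 and Psmb9 overlap by 44 bases on opposite strands.

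All 3 arrays labelled DMSO carried members at high levels, but not equally. Levels are log2 intensities relative to the 75th percentile of the array, so 0 is the intensity below which 75% of the gene spots of that array lie. They are compared only between arrays, for the same probe. Averaged over the 38 tested members and taken relative to each gene's mean over the 15 arrays, the level was 0.32 on DMSO 1, 1.18 on DMSO 2 and 1.03 on DMSO 3. The 12 compound arrays lay between -0.79 (naphthalene 1) and 0.16 (1,5-naphthalenediol 3), so the groups did not overlap in this average. DMSO 1 was the lowest DMSO array for 35 of the 38 members, beside 30.5% of all genes tested. The spread among the DMSO arrays was known when the members were chosen, so this too is a description. For 24 of the 38, all 3 DMSO arrays lay above all 12 compound arrays, which 5.69% of all genes did; the choice of members used these differences, so nothing is read from that count. DMSO 1 taken alone lay above all 12 compound arrays for 25 members, and DMSO 2 and DMSO 3 each did for 36.

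**Figure D2:**
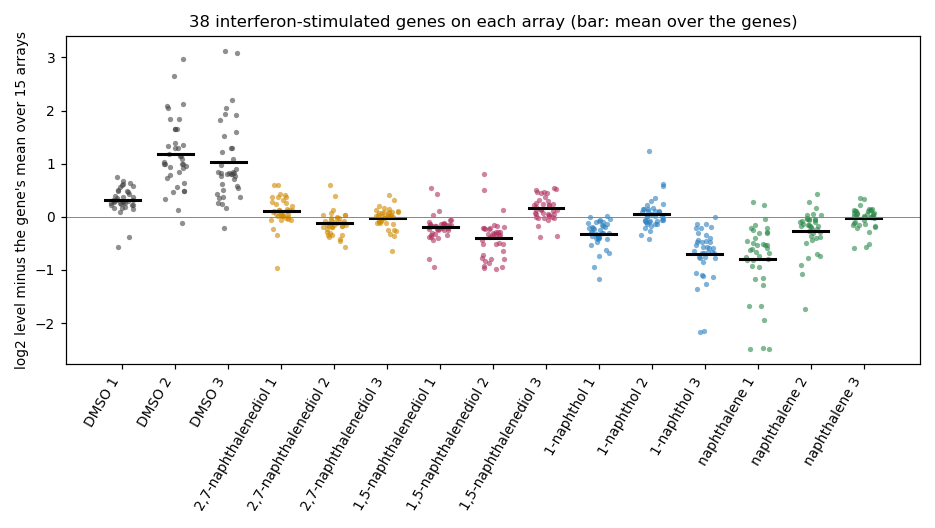
Log2 level of each of the 38 tested members on each array, relative to that gene's mean over the 15 arrays; the bar is the mean over the genes. DMSO 2 and DMSO 3 average 1.18 and 1.03, DMSO 1 0.32, and the compound arrays -0.79 to 0.16, with 1-naphthol 3 at -0.69 and naphthalene 1 at -0.79 below the other arrays of their groups.

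The members also moved together among arrays that had the same treatment. Naphthalene 1 was the lowest naphthalene array for 36 of the 38 members (29.3% of all genes) and 1-naphthol 3 the lowest 1-naphthol array for 37 (27.1% of all genes). The array 1,5-naphthalenediol 3 was the highest of its group for 35 members (35.9% of all genes), and 2,7-naphthalenediol 1 for 26 (35.7% of all genes). By the file headers, 1,5-naphthalenediol 3 is on slide 2 and the rest of its group on slide 1. An effect of the slide cannot be told apart from one of the array there. With the group means removed, 36 members correlated above 0.5 with the average of the other members over the 15 arrays, and the median correlation was 0.86. Among the other genes tested 6.75% exceeded 0.5 against the members' average, with a median of -0.09. The DMSO arrays, whose spread was known at the choice of members, are among the 15, so nothing is read from that contrast. These correlations are descriptions over 15 arrays that share the labelling and hybridization. Bst2 (-0.36) and Cxcl10 (0.44) were the members outside this pattern.

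Effector genes act directly on viral RNA and proteins. Ifit3, which binds viral RNA with its sister proteins, lay at -1.48, 1.26 and 1.38 with DMSO, -1.57, -1.80 and -1.84 with 2,7-naphthalenediol, -1.84, -1.93 and -1.33 with 1,5-naphthalenediol, -2.87, -1.1 and -3.86 with 1-naphthol, and -4.19, -2.78 and -1.64 with naphthalene. DMSO 1 lay inside the range of the compound arrays, and the lowest and highest arrays differed 47.3-fold. The differences of the compound means from DMSO, in the order 2,7-naphthalenediol, then 1,5-naphthalenediol, then 1-naphthol, then naphthalene, were -2.13, -2.08, -2.99 and -3.26 (SE 0.839 each). Rsad2, the radical enzyme viperin, lay at 0.14, 2.54 and 3.82 with DMSO, 1.08, 1.09 and 0.34 with 2,7-naphthalenediol, 1.25, 1.52 and 0.71 with 1,5-naphthalenediol, 0.18, 1.95 and -1.47 with 1-naphthol, and -1.76, -1.04 and 0.20 with naphthalene. All 6 diol arrays, 1-naphthol 1 and 2 and naphthalene 3 lay above DMSO 1, so the groups overlapped. Ifit2, of the same family as Ifit3, lay at -1.75, -0.62 and -0.32 with DMSO, -1.89, -1.98 and -1.93 with 2,7-naphthalenediol, -2.34, -2.41 and -2.27 with 1,5-naphthalenediol, -2.31, -1.82 and -2.50 with 1-naphthol, and -2.66, -2.29 and -1.56 with naphthalene, with DMSO 1 below naphthalene 3.

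Mx1, an antiviral GTPase, lay at -0.005, 2.05 and 1.60 with DMSO, -0.33, -0.97 and -0.85 with 2,7-naphthalenediol, -1.39, -1.52 and -0.63 with 1,5-naphthalenediol, -0.89, -1.01 and -1.73 with 1-naphthol, and -1.54, -0.83 and -0.88 with naphthalene. All DMSO arrays were above all compound arrays. The differences from DMSO, in the same order of compounds, were -1.93, -2.39, -2.43 and -2.30 (SE 0.457 each). Its neighbour in function Mx2 also had its DMSO arrays (6.12 to 6.57) above the highest compound array (5.87), with differences of -0.67, -0.93, -1.01 and -0.92 (SE 0.291 each).

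The 2′-5′-oligoadenylate synthetases make the messenger that activates RNase L, and their relatives Oasl and Oasl2 share the fold. Oasl lay at -3.49, -1.88 and -2.04 with DMSO, -3.53, -3.96 and -3.81 with 2,7-naphthalenediol, -4.01, -4.46 and -3.50 with 1,5-naphthalenediol, -4.69, -3.65 and -5.21 with 1-naphthol, and -6.45, -4.86 and -3.81 with naphthalene. It was well above background on 2 of the 3 naphthalene arrays, and the dim array entered the fit at its measured value. Oasl2 lay at -0.19, 1.26 and 0.97 with DMSO, -0.47, -0.88 and -0.69 with 2,7-naphthalenediol, -1.23, -1.83 and -0.34 with 1,5-naphthalenediol, -1.80, -0.50 and -2.21 with 1-naphthol, and -2.79, -1.35 and -0.75 with naphthalene. DMSO arrays were above compound arrays for both, with differences of -1.30, -1.52, -2.05 and -2.58 (SE 0.622 each) for Oasl and -1.36, -1.82, -2.19 and -2.31 (SE 0.587 each) for Oasl2.

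Of the Oas1 cluster, Oas1a lay at 1.36, 2.08 and 1.55 with DMSO, 1.04, 0.39 and 0.82 with 2,7-naphthalenediol, 0.57, -0.14 and 0.97 with 1,5-naphthalenediol, 0.53, 0.63 and -0.05 with 1-naphthol, and -0.08, 0.68 and 0.57 with naphthalene. Oas1i lay at -0.52, 0.30 and -0.26 with DMSO, -0.95, -1.41 and -1.06 with 2,7-naphthalenediol, -1.42, -2.02 and -0.63 with 1,5-naphthalenediol, -1.26, -1.05 and -1.84 with 1-naphthol, and -1.76, -1.17 and -1.07 with naphthalene. Oas1k lay at 0.62, 1.31 and 0.92 with DMSO, 0.38, -0.33 and 0.05 with 2,7-naphthalenediol, -0.12, -0.78 and 0.24 with 1,5-naphthalenediol, -0.23, -0.08 and -0.74 with 1-naphthol, and -0.91, -0.11 and -0.01 with naphthalene. In each, DMSO 2 was the highest array, the lowest 3 were 1,5-naphthalenediol 2, 1-naphthol 3 and naphthalene 1 in varying order, and no compound array reached the DMSO arrays. The sequences of these genes are close to each other, so their probes may share signal. Oas2 was dim, well above background on 12 of the 15 arrays and on 2 of 3 with 2,7-naphthalenediol, 1,5-naphthalenediol and naphthalene, with differences of -0.76, -1.19, -1.02 and -0.76 (SE 0.335 each).

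Isg15 is a ubiquitin-like protein attached to other proteins, and Usp18 removes it and dampens the receptor. Isg15 lay at 4.08, 5.22 and 4.86 with DMSO, 3.98, 3.29 and 3.70 with 2,7-naphthalenediol, 3.69, 2.62 and 4.12 with 1,5-naphthalenediol, 3.15, 3.37 and 2.47 with 1-naphthol, and 2.30, 3.4 and 3.39 with naphthalene. The array 1,5-naphthalenediol 3 lay just above DMSO 1, so its groups overlapped, and the differences were -1.06, -1.25, -1.73 and -1.69 (SE 0.434 each). Usp18 lay at 1.54, 2.44 and 2.09 with DMSO, 0.91, 0.77 and 0.89 with 2,7-naphthalenediol, 0.56, 0.17 and 1.30 with 1,5-naphthalenediol, 0.18, 1.05 and -0.30 with 1-naphthol, and -0.88, 0.36 and 0.93 with naphthalene. Its DMSO arrays were all above its compound arrays, with differences of -1.17, -1.35, -1.71 and -1.89 (SE 0.456 each).

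Cmpk2, a mitochondrial nucleotide kinase and neighbour of Rsad2, lay at 0.17, 1.84 and 1.94 with DMSO, 0.006, 0.07 and -0.24 with 2,7-naphthalenediol, -0.13, -0.18 and 0.22 with 1,5-naphthalenediol, -0.69, 0.11 and -1.06 with 1-naphthol, and -1.17, -0.74 and -0.16 with naphthalene. DMSO 1 lay below 1,5-naphthalenediol 3, while DMSO 2 and DMSO 3 were above every compound array. Trim30d, of the tripartite motif family, lay at -4.93, -3.16 and -3.15 with DMSO, -5.55, -5.37 and -4.80 with 2,7-naphthalenediol, -6.15, -5.53 and -4.88 with 1,5-naphthalenediol, -5.59, -5.09 and -5.87 with 1-naphthol, and -6.89, -5.98 and -5.14 with naphthalene, and it was well above background on 2 of the 3 naphthalene arrays. Sp100, a nuclear body protein, lay at -1.63, -0.42 and -0.85 with DMSO, -1.92, -2.38 and -2.08 with 2,7-naphthalenediol, -2.22, -2.91 and -1.61 with 1,5-naphthalenediol, -2.54, -2.41 and -2.84 with 1-naphthol, and -2.81, -2.26 and -2.17 with naphthalene. For Trim30d and Sp100 too, the array 1,5-naphthalenediol 3 lay above DMSO 1.

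**Figure D3:**
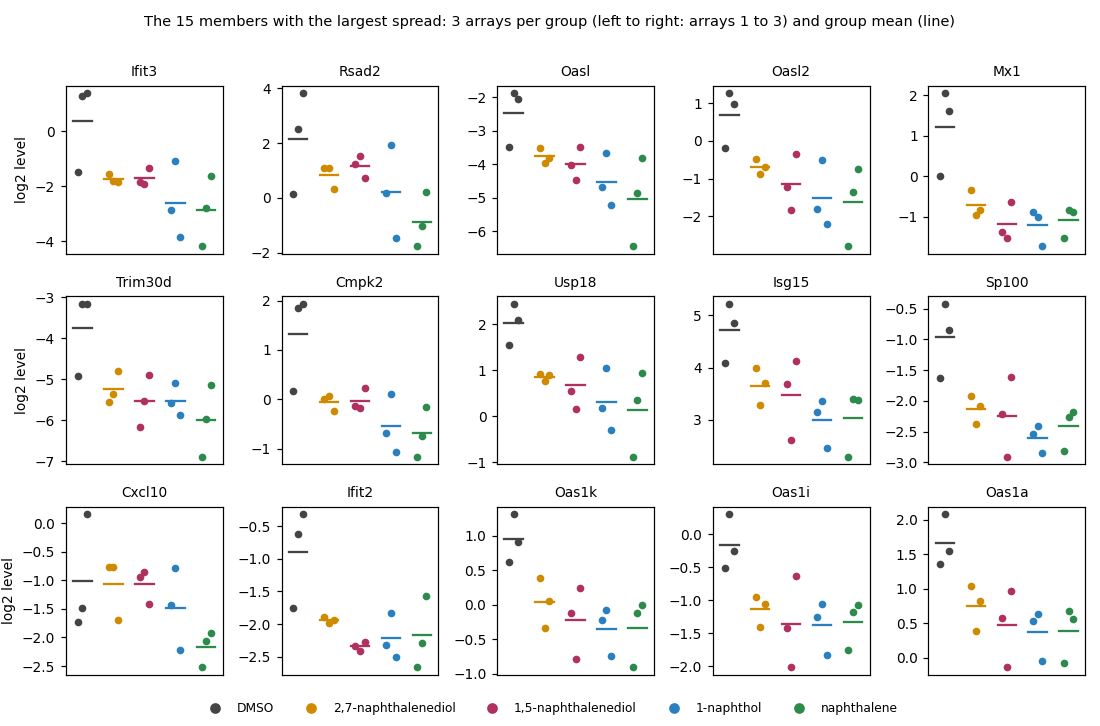
Log2 level (relative to the array's 75th percentile) of the 15 members with the largest standard deviation over the arrays; points are arrays 1 to 3 of a group from left to right, lines are group means. DMSO 1 is the lowest DMSO array in all 15, and in Ifit3 it lies at -1.48 beside 1.26 and 1.38.

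The chemokines Cxcl10 and Cxcl11, neighbours that call T cells through the same receptor, differed in pattern. Cxcl10 lay at -1.73, -1.48 and 0.15 with DMSO, -0.77, -0.77 and -1.69 with 2,7-naphthalenediol, -0.94, -0.86 and -1.42 with 1,5-naphthalenediol, -1.44, -0.78 and -2.22 with 1-naphthol, and -2.52, -2.06 and -1.92 with naphthalene. DMSO 1 and DMSO 2 lay inside the range of the compound arrays, and only DMSO 3 was above them. The differences of Cxcl10 from DMSO were -0.05, -0.05, -0.46 and -1.15 (SE 0.477 each), the values for both diols being near 0. Cxcl11 had all DMSO arrays above all compound arrays, with differences of -1.1, -1.19, -1.33 and -1.19 (SE 0.218 each). Tnfsf10, the death ligand TRAIL, was dim, well above background on 1 of 3 arrays with 2,7-naphthalenediol and 2 of 3 with 1-naphthol, and differed by -1.30, -0.79, -1.01 and -0.59 (SE 0.272 each).

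The transcription factors Irf7, Stat2, Irf9 and Irf1 were not among the 15 members with the largest spread. Their standard deviations over the arrays were 0.477, 0.256, 0.265 and 0.205, beside 0.372 for Isg20 and 0.191 for Psmb8, which are no transcription factors. Irf7, which amplifies interferon transcription, lay at 3.76, 4.36 and 3.87 with DMSO, 3.57, 2.91 and 3.68 with 2,7-naphthalenediol, 3.18, 2.59 and 3.50 with 1,5-naphthalenediol, 3.39, 3.23 and 2.68 with 1-naphthol, and 2.84, 3.52 and 3.4 with naphthalene. Its DMSO arrays were above all compound arrays. Stat2 lay at 3.38, 3.73 and 3.43 with DMSO, 3.07, 2.96 and 2.97 with 2,7-naphthalenediol, 2.92, 2.81 and 3.15 with 1,5-naphthalenediol, 2.94, 3.10 and 2.88 with 1-naphthol, and 2.79, 3.02 and 3.10 with naphthalene, with differences of -0.51, -0.56, -0.54 and -0.55 (SE 0.113 each), and its groups did not overlap either. Irf9 lay at 0.96, 1.09 and 0.77 with DMSO, 0.66, 0.55 and 0.56 with 2,7-naphthalenediol, 0.23, 0.27 and 0.84 with 1,5-naphthalenediol, 0.41, 0.84 and 0.30 with 1-naphthol, and 0.33, 0.65 and 0.73 with naphthalene, where DMSO 3 lay below 1,5-naphthalenediol 3 and 1-naphthol 2. Irf1, the factor of the type II response that binds ISRE-like sites, lay at 0.71, 0.96 and 1.04 with DMSO, 0.65, 0.65 and 0.62 with 2,7-naphthalenediol, 0.29, 0.33 and 0.43 with 1,5-naphthalenediol, 0.50, 0.66 and 0.48 with 1-naphthol, and 0.57, 0.59 and 0.74 with naphthalene. The 1,5-naphthalenediol arrays were the lowest 3 of the 15.

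Sensors of viral RNA are themselves members. Differences from DMSO were -0.80, -0.88, -0.95 and -1.02 (SE 0.187 each) for Ifih1 (MDA5), -0.66, -0.87, -1.02 and -0.85 (SE 0.197 each) for its regulator Dhx58 (LGP2) and -0.71, -0.87, -0.92 and -0.93 (SE 0.219 each) for Eif2ak2, the kinase PKR that halts translation. All DMSO arrays lay above all compound arrays for these 3 genes. Zbp1, a sensor of Z-form nucleic acid that was not tested, lay at -8.04, -5.56 and -6.03 with DMSO, -7.96, -8.83 and -8.28 with 2,7-naphthalenediol, -8.96, -8.03 and -7.82 with 1,5-naphthalenediol, -9.34, -9.29 and -8.98 with 1-naphthol, and -8.61, -7.80 and -8.05 with naphthalene. It was well above background on DMSO 2 and DMSO 3 only. No fold is given, since DMSO 1 is itself not well above background and lies below some compound arrays.

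Parp9 and Dtx3l, partners that modify proteins with ADP-ribose and ubiquitin, differed by -0.83, -0.95, -1.14 and -1.14 (SE 0.207 each) and -0.74, -0.77, -0.84 and -0.86 (SE 0.177 each). Their neighbour Parp14 differed by -0.60, -0.72, -0.83 and -0.81 (SE 0.212 each). Among members that serve antigen processing, the immunoproteasome subunits Psmb8 and Psmb9 differed by -0.31, -0.40, -0.41 and -0.44 (SE 0.0834 each) and -0.38, -0.57, -0.52 and -0.46 (SE 0.105 each), and the peptide transporter Tap1 by -0.60, -0.80, -0.99 and -0.94 (SE 0.158 each). In these 6 genes the DMSO arrays did not overlap the compound arrays.

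Gbp2, a guanylate-binding protein, differed by -0.84, -0.91, -1.07 and -0.94 (SE 0.248 each), and the exonuclease Isg20 by -0.68, -0.64, -0.88 and -0.83 (SE 0.158 each). Ifi44 differed by -0.85, -0.72, -1.1 and -1.15 (SE 0.246 each), Lgals3bp by -0.38, -0.70, -0.68 and -0.52 (SE 0.172 each) and Ifi35 by -0.38, -0.43, -0.31 and -0.39 (SE 0.107 each). Bst2, the tetherin that holds virus particles on the membrane, differed by -0.02, 0.03, -0.04 and -0.05 (SE 0.203 each). It lay between 3.01 and 3.88 on all arrays with the groups overlapping, and its promoter window holds a pair of ISRE cores. Of the 38 tested members 8 have a further probe, and all 8 were below DMSO with all 4 compounds on both probes, with at most 0.38 between the probes' differences.

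**Figure D4:**
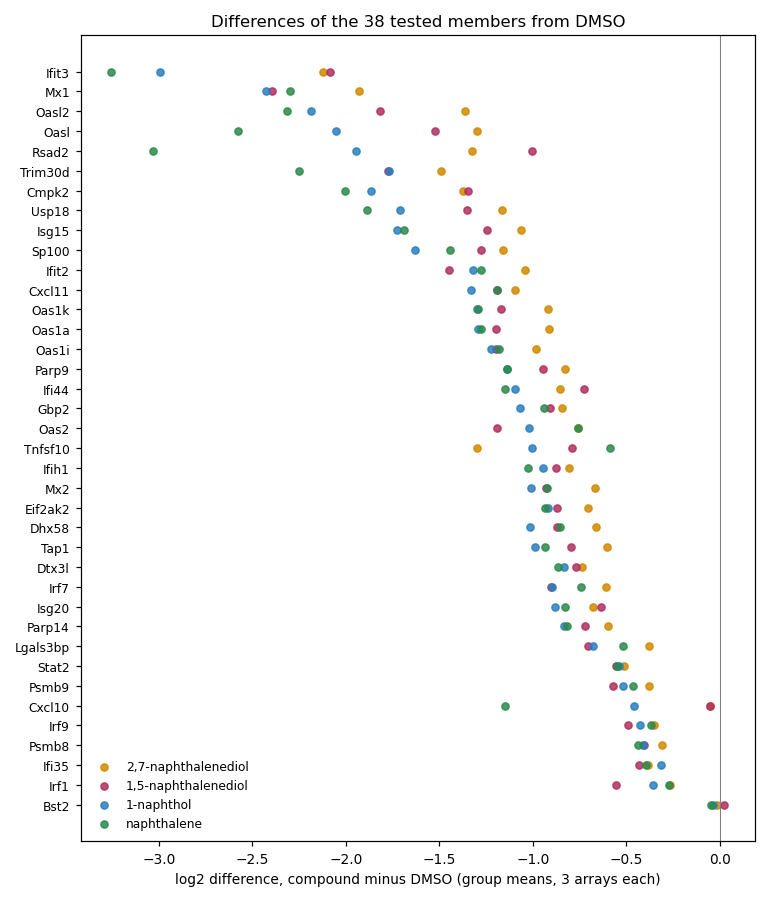
Log2 difference of each compound's mean from the DMSO mean for the 38 tested members, ordered by their average difference; every group mean is over 3 arrays. The values run from -3.26 (Ifit3 with naphthalene) to 0.03 (Bst2 with 1,5-naphthalenediol), and Cxcl10 lies near 0 with both diols.

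In limma's fit of all 15 arrays, members below DMSO at a Benjamini-Hochberg adjusted p under 0.05 numbered 15 of 38 with 2,7-naphthalenediol (4.86% of all genes were called lower and 6.22% higher). They numbered 28 with 1,5-naphthalenediol (12.8% of all genes lower, 9.42% higher), 33 with 1-naphthol (10.6% lower, 10.2% higher) and 32 with naphthalene (12.6% lower, 12.5% higher). The median member differences were -0.82, -0.91, -1.02 and -0.98, against -0.02, -0.01, -0.004 and -0.002 over all genes. These contrasts helped to choose the members, and the 4 comparisons share the DMSO arrays, so the counts are not evidence. Called with all 4 compounds were 12 members, among them Mx1, Cxcl11, Stat2, Ifih1, Parp9 and Tap1, and with none 3, namely Cxcl10, Irf9 and Bst2.

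The counts changed when single arrays were left out. A fit without an array has less power for every gene, and the share of all genes called in these fits is not reported here. The falls are therefore not read as a trait of the members. Without DMSO 2 they were 2, 12, 16 and 19 in the same order of compounds, and without DMSO 3 they were 2, 16, 17 and 19. Without 2,7-naphthalenediol 1, 2 or 3 the first count was 9, 2 and 2. Leaving out 1,5-naphthalenediol 2 gave 12, 1-naphthol 1 or 3 gave 21 and 13, and naphthalene 1 gave 18.

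Slide and compound are partly confounded. The file headers place the DMSO arrays, the 2,7-naphthalenediol arrays and 1,5-naphthalenediol 1 and 2 on slide 1, and the other arrays on slide 2. With the slide as a block, members called were 17 with 2,7-naphthalenediol (15.1% of all genes called in either direction), 32 with 1,5-naphthalenediol (22.2%), 1 with 1-naphthol (1.17%) and 0 with naphthalene (0.728%). Below an unadjusted limma p of 0.05 were 34 members with 1-naphthol and 32 with naphthalene. The members were chosen on these differences, and the share of all genes below that p is not reported here. Nothing is read from the 34 and 32. The median differences under the block were -0.82, -1.04, -1.45 and -1.37. The last 2 depend on a slide difference set by 1,5-naphthalenediol 3, the only array of its compound on slide 2. That array was the highest of its group for 35 of the 38 members (35.9% of all genes). Within slide 1 alone, 12 members were called with 2,7-naphthalenediol and 31 with 1,5-naphthalenediol. The share of all genes called within slide 1 is not reported here, so nothing is read from these 2 counts. For 1-naphthol and naphthalene no slide holds DMSO, and only 1,5-naphthalenediol, with arrays on both slides, links them; a slide effect and a compound effect cannot be told apart otherwise.

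The compounds were then compared with each other, in 6 pairs whose differences do not involve the DMSO arrays. Their SE, intervals and p-values do, since the fit pools the spread of all 15 arrays. Of 228 tests of a member in a pair, 2 passed the adjusted threshold, both of Irf1, and 8 had an unadjusted limma p under 0.05. Between 1,5-naphthalenediol and 2,7-naphthalenediol, which differ in the positions of their hydroxyl groups, 1 of 38 members was called (14.8% of all genes). Irf1 was lower with 1,5-naphthalenediol by -0.29 (SE 0.0827, 95% interval -0.47 to -0.11), with a limma adjusted p of 0.0365, and 0.0154 when its p-values were adjusted over the 6 pairs. All 3 arrays of 1,5-naphthalenediol (0.29 to 0.43) lay below all 3 of 2,7-naphthalenediol (0.62 to 0.65). Within slide 1 the difference of Irf1 was -0.33 with a limma adjusted p of 0.0784. The call also ended without any 1 of the 2,7-naphthalenediol arrays or without 1,5-naphthalenediol 1 or 2 (adjusted p 0.0765 to 0.0978).

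Against naphthalene, 1,5-naphthalenediol differed in 1 member (24.9% of all genes were called). It was again Irf1, lower by -0.28 (SE 0.0827, 95% interval -0.46 to -0.10; limma adjusted p 0.0278, and 0.0154 over the 6 pairs). With the slide as a block this became -0.20 with a limma adjusted p of 0.333. It also ended without 1,5-naphthalenediol 1 or 2 or naphthalene 3 (limma adjusted p 0.0781 to 0.0933), with only the arrays of the pair (0.0739) and with no filter on dim probes (0.0838).

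In the other 4 pairs no member passed limma's adjusted threshold. Between 1-naphthol and naphthalene, which differ by a hydroxyl group, 2.44% of all genes were called, no member had an unadjusted p under 0.05, and the median member difference was -0.02. Between 1,5-naphthalenediol and 1-naphthol, which differ by a further hydroxyl group, 9.23% were called, 1 member had such a p, and the median was 0.10, or 0.43 with the slide as a block. For 2,7-naphthalenediol against 1-naphthol, 14.7% were called, 1 member had such a p, and the median was 0.28, or 0.67 with the block. For 2,7-naphthalenediol against naphthalene, 15.9% were called, 2 members had such a p, and the median was 0.22, or 0.61 with the block. In the last 2 pairs the compounds share no slide, so the effects of slide and compound cannot be told apart within them.

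These tests do not show that the compounds act alike, since the intervals were wide. The 95% interval of a member's pair difference extended 0.57 to either side at the median, 0.18 for the narrowest and 2.02 for the widest. For Mx1 the difference between 1-naphthol and naphthalene was -0.13 (95% interval -1.12 to 0.87), and for Isg15 it was -0.03 (-0.98 to 0.91). Rsad2 between 1,5-naphthalenediol and naphthalene had the largest pair difference of all members, 2.03 (0.01 to 4.05, limma adjusted p 0.129). For Cxcl10, the 1,5-naphthalenediol mean lay 1.1 above that of naphthalene (0.06 to 2.14, limma adjusted p 0.112).

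Upstream of the members, the kinases Jak1 and Tyk2 differed from DMSO by at most 0.15. Jak1 differed by -0.01, 0.14, 0.04 and -0.03, and was called with 1,5-naphthalenediol. Tyk2 differed by 0.15, -0.10, -0.01 and 0.005 and was not called against DMSO. Ifnar1, a receptor chain, differed by 0.08, -0.18, -0.29 and -0.28 (SE 0.0819) and was called with 1-naphthol and naphthalene (limma adjusted p 0.0274 and 0.0268). With the slide as a block those values turned to 0.06 and 0.06 (limma adjusted p 0.783 and 0.719), and 1,5-naphthalenediol 3 on slide 2 lay at -3.29 beside -2.94 and -2.95 for the same compound on slide 1. No probe was matched to Ifnar2 or Rigi.

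Of 18 tested genes of 23 in the list of receptors and signalling, 3, 4, 5 and 4 were called lower and 1, 2, 1 and 3 higher, again from 2,7-naphthalenediol to naphthalene in that order. Of all genes, 4.86%, 12.8%, 10.6% and 12.6% were called lower and 6.22%, 9.42%, 10.2% and 12.5% higher. Under the slide block 4, 4, 0 and 0 of the list were called lower and 1, 1, 1 and 0 higher. In that fit 15.1%, 22.2%, 1.17% and 0.728% of all genes were called in either direction. Socs3, which curbs cytokine receptors, rose with each compound, by 0.45, 0.89, 0.37 and 0.20 (SE 0.0457, limma adjusted p at most 0.0113), from -4.29 to -4.22 on the DMSO arrays. With the slide as a block the naphthalene value was 0.25 with a limma adjusted p of 0.127. Irf5 fell with 1,5-naphthalenediol by 0.54 (SE 0.0839, limma adjusted p 0.000918), and its 1,5-naphthalenediol arrays (-5.12 to -4.91) lay below all others.

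**Figure D5:**
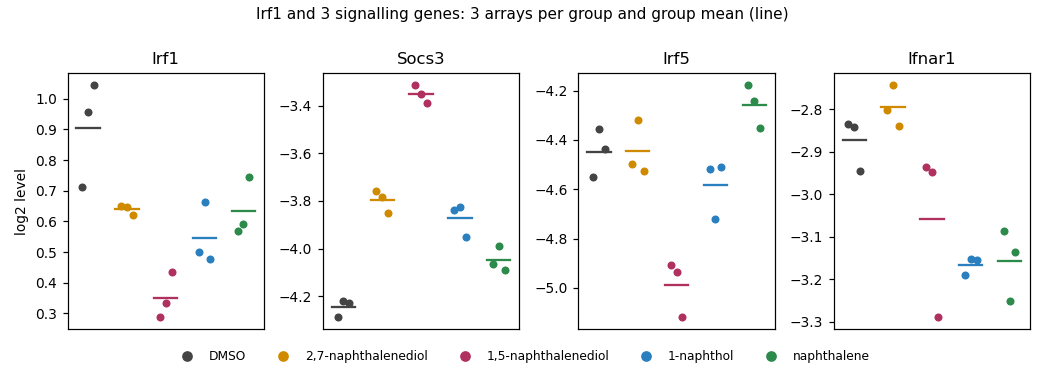
Log2 level (relative to the array's 75th percentile) of the member Irf1 and of 3 signalling genes that are no members; points are arrays 1 to 3 of a group from left to right, lines are group means. Socs3 is lowest on the DMSO arrays (-4.29 to -4.22), and Irf1 and Irf5 are lowest with 1,5-naphthalenediol.

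The interferons themselves gave little signal. Of 11 listed genes 6 had a probe and 3 were tested, and none of the 3 was called in any of the 10 comparisons by limma, with 1 unadjusted p under 0.05 (Ifnk with 2,7-naphthalenediol, named after its value was seen). Within slide 1, 1 of the 3 was called higher with 2,7-naphthalenediol and 1 with 1,5-naphthalenediol, and with the slide as a block 1 was called lower with 1,5-naphthalenediol. Ifnb1 was well above background on 10 of the 15 arrays. It lay at -6.29, -6.18 and -5.87 on the DMSO arrays, and its highest array was 2,7-naphthalenediol 3 (-4.70). Its differences from DMSO were 0.06, -0.40, -0.48 and -0.68 (SE 0.543).

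The gene lists, like the members, were chosen with earlier results of these data known. The comparisons also share the DMSO arrays, so the list counts are descriptions. Of all genes, 4.86%, 12.8%, 10.6% and 12.6% were called lower and 6.22%, 9.42%, 10.2% and 12.5% higher. With the slide as a block, 15.1%, 22.2%, 1.17% and 0.728% were called in either direction. Of other genes of the response that are not members, 34 of 54 listed were tested. Called lower were 14, 21, 20 and 21 in the same order, with median differences of -0.34, -0.39, -0.38 and -0.39. With the slide as a block the calls were 16, 26, 4 and 4. Ifi47, an immunity-related GTPase, fell by 1.40, 1.32, 1.64 and 1.91 (SE 0.345; limma adjusted p 0.0263, 0.0175, 0.00852 and 0.00417). Sp110 fell by 0.73, 0.85, 0.88 and 0.92 (SE 0.168, limma adjusted p at most 0.02). Under the slide block the 1-naphthol and naphthalene calls ended for Ifi47 (limma adjusted p 0.136 and 0.1002) and for Sp110 (0.0678 and 0.0624), as they did for Trex1, Tlr3 and Psmb10, named next. Among sensors and adaptors, 4, 6, 7 and 5 of 16 tested genes were called lower (with the block 4, 6, 0 and 0), among them the exonuclease Trex1 (-0.42, -0.37, -0.57 and -0.63) and the RNA receptor Tlr3 (-0.45, -0.41, -0.45 and -0.35). In the MHC class I list, 2, 8, 3 and 2 of 16 tested genes were called lower (with the block 3, 9, 0 and 0), Psmb10 by -0.31, -0.36, -0.41 and -0.41. In the NF-kB and IL-6 list, 2, 12, 6 and 5 of 27 tested genes were called lower and 3, 1, 0 and 1 higher (with the block 4, 9, 2 and 0 lower and 3, 1, 0 and 0 higher).

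By likeness to the average of the 38 members over the 15 arrays, the closest other genes with a symbol included Zfp365 (Pearson r 0.99), Irgm (0.99), Ifgga2l1 (0.98), Sp110 (0.98), Ifi47 (0.98), Spats2l (0.97), RGD1309362 (0.97), Ifgga2l2 (0.97) and Aida (0.96). With group means removed their r ranged from 0.90 to 0.97. The median r over all other genes was -0.018 over the 15 arrays. These genes were picked for the highest r, so their likeness and their group means are descriptions only. The zinc finger gene Zfp365 had group means of -2.82 with DMSO and -4.11, -4.25, -4.68 and -4.68 with the compounds. RGD1309362 had 1.57 with DMSO and -0.09, 0.11, -0.57 and -0.59 with the compounds.

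Hepatocyte markers were measured throughout, 18 of 18 tested and 17 well above background on all arrays. Their summed level, in multiples of the array's 75th percentile, was 687 to 709 with DMSO and 636 to 688 with the compounds. Markers of cells that could supply or sense interferon were mostly not well above background on any array: 11 of 15 measured macrophage genes, Cd163, Clec4f and Marco among them, and 11 of 15 of lymphocytes and plasmacytoid dendritic cells. The summed level of macrophage markers was 1.53 to 1.67 with DMSO and 1.62 to 1.96 with the compounds, and that of the lymphocyte list 0.132 to 0.137 against 0.108 to 0.157. Endothelial markers summed to 1.9 to 2.11 with DMSO and 1.7 to 2.19 with the compounds, stellate cell markers to 3.54 to 3.64 against 2.1 to 3.45, and bile duct markers to 0.607 to 0.658 against 0.466 to 0.666. The stellate sum thus was highest with DMSO, as the members were. It covers 12 markers with a probe, of which 5 were tested. The median differences of the 5 from DMSO were 0.155 with 2,7-naphthalenediol, -0.022 with 1,5-naphthalenediol, 0.084 with 1-naphthol and 0.34 with naphthalene. Single values ran from -0.746 to 0.517, both with 1,5-naphthalenediol. Below DMSO lay 2, 3, 2 and 1 of the 5, in the same order of compounds. The part of stellate cells in the result was not tested.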

How the data were processed

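Total RNA of 15 cultures was labelled with Cy3 and hybridized to 1 array each, per the labels' protocols. The deposited files hold a processed intensity per spot that the authors made with Feature Extraction 10.7.1.1, per the file headers, with background subtracted and no scaling between arrays. The deposited flags (other columns of those files) were used to leave out 250 to 354 non-uniform or outlier spots per array.

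Intensities were put on the log2 scale minus each array's 75th percentile (1718 to 2074 units). Between 57.4% and 61% of gene spots were well above background, no gene spot was saturated, and the number of arrays limits the precision. Spots of a probe were averaged, and probes had to be well above background on all 3 arrays of a group. The brightest probe stood for a gene. Of 45598 probes, 21229 matched a symbol through the RefSeq gene table (GRCr8); the headers name another build, so no coordinates come from the files. limma 3.58.1 (R 4.3.3) fitted the 5 group means over all 15 arrays, with Benjamini-Hochberg adjustment over 19783 genes within each of 10 comparisons, and the fit was tested on simulated data. SE is the standard error of a difference, and intervals are at 95%.

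The members and gene lists were chosen with earlier results of these data known. All members may be named. Values per array are given for the 15 tested members with the largest spread and for Irf1, Irf7, Irf9 and Stat2. From the other lists, up to 3 called genes per list and comparison and a fixed set of signalling genes may be named, with the 10 genes most like the members. Of these, 1 gene is not reported here. The values per array of Zbp1 were added after they were seen. Alternatives were the slide or replicate number as a block, within-slide fits, only the arrays of a pair, normexp (offset 50) on the median spot signal in place of the planned mean signal, which was not used here, quantile normalization, other filters, the mean of a gene's probes, and leaving out each array. The replicate numbers do not pair the arrays, since only 2 of 30 pairs of arrays with the same number had deviations from their group means that correlated above 0.1.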

Additional observations from a re-analysis of the deposited data

Results flagged for a closer look

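Each result here is a difference between the effects of 2 compounds that limma's test of the pair found past an adjusted p of 0.05. Irf1 was lower with 1,5-naphthalenediol than with 2,7-naphthalenediol (-0.29, SE 0.0827) and than with naphthalene (-0.28, SE 0.0827). Socs3 was higher with 1,5-naphthalenediol than with 2,7-naphthalenediol (0.45), 1-naphthol (0.52) and naphthalene (0.70), and higher with 2,7-naphthalenediol than with naphthalene (0.25), each with an SE of 0.0457. With the slide as a block the last value of Socs3 was 0.20 with a limma adjusted p of 0.496, and that of Irf1 against naphthalene was -0.20 with 0.333. Irf5 was lower with 1,5-naphthalenediol than with 2,7-naphthalenediol (-0.54), 1-naphthol (-0.40) and naphthalene (-0.73), each with an SE of 0.0839. Ifnar1 was higher with 2,7-naphthalenediol than with 1-naphthol (0.37) and naphthalene (0.36), each with an SE of 0.0819, and these values were 0.02 and 0.01 with the slide as a block. With 3 arrays in a group, single arrays were not tested as outliers.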

How the results depend on the processing

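The alternatives changed how many members were called, and no called member difference changed sign in any of them. The members were chosen on differences from DMSO, and the alternatives reuse the same arrays. Nothing is therefore read from the constant sign. Among the 108 calls against DMSO, 66 were lost when at least 1 of the 6 arrays concerned was left out. The share of such losses over all genes is not reported here. Of the single-gene values recomputed, 1766 kept their side of the threshold, 445 lost the call and 65 gained one.

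Leaving out single arrays gave 2 to 21 members called with 2,7-naphthalenediol, 12 to 32 with 1,5-naphthalenediol, 13 to 32 with 1-naphthol and 18 to 31 with naphthalene, with medians of -1.01 to -0.66, -1.07 to -0.75, -1.26 to -0.87 and -1.2 to -0.84. For the compound pairs it gave 0 to 1 called for 1,5-naphthalenediol minus 2,7-naphthalenediol, minus naphthalene, and for 2,7-naphthalenediol minus naphthalene. As the share of all genes called in these fits is not reported here, nothing is read from these counts.

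With only the arrays of the pair, counts against DMSO were 4, 12 and 17 for 2,7-naphthalenediol, 1,5-naphthalenediol and naphthalene. With no filter on dim probes they were 2, 17 and 21 for 2,7-naphthalenediol, 1,5-naphthalenediol and 1-naphthol, and with normexp 23 for 2,7-naphthalenediol. With the slide as a block they were 1 and 0 for 1-naphthol and naphthalene, with medians of -1.45 and -1.37. These medians depend on a slide difference set by 1,5-naphthalenediol 3. The slide block moved the pair medians to 0.43 (1,5-naphthalenediol minus 1-naphthol), 0.39 (minus naphthalene), 0.67 (2,7-naphthalenediol minus 1-naphthol) and 0.61 (minus naphthalene). Within slide 2 the first 2 were 0.43 and 0.39 by construction. For these pairs both fits rest on 1,5-naphthalenediol 3, the only array of its compound on slide 2. The count for 1,5-naphthalenediol minus 2,7-naphthalenediol was 0 within slide 1, with normexp and with no filter, and 2 with only the pair's arrays. For 1,5-naphthalenediol minus naphthalene it was 0 with the slide block, within slide 2 and with no filter, and 2 with normexp. For 2,7-naphthalenediol minus naphthalene it was 1 with the pair's arrays and with normexp. Apart from the construction of the fits with fewer arrays, the cause was not tested. Except for the slide block against DMSO, the share of all genes called in these fits is not reported here. The changes in count are therefore not read as a trait of the members.

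The replicate number as a block gave 12, 26, 31 and 30 members called against DMSO and left the medians at -0.82, -0.91, -1.02 and -0.98. For this block too, the share of all genes called is not reported here. The best correlation of an array was with an array of the same number in 5 of 15 cases.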
